A study of Mus musculus with 9 samples.

Results

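The genes described here are 10 negative regulators of SMAD signalling, Pmepa1, Ldlrad4, Smad7, Smad6, Ski, Skil, Smurf1, Smurf2, Tgif1 and Bambi, taken by symbol from a gene table of 16876 genes. Each was found once, and all 10 were among the 12212 genes abundant enough to be tested. They were measured by poly-A RNA sequencing in 9 libraries of natural killer (NK) cells grown in culture from C57BL/6 mouse bone marrow. For the first 4 days the medium held, in ng/mL, IL-15 at 50, SCF at 30, Flt3L at 10 and IL-7 at 1, and for another week IL-2 at 20 and IL-15 at 50. The SIS3_TGFb group (n = 3) received 10 µM of the Smad3 inhibitor SIS3 for 3 h before 3 h of TGF-β1 (5 ng/mL). The TGFb group (n = 3) received the same TGF-β1 without SIS3, and the Ctrl group (n = 3) received neither. No group was given SIS3 alone, and no solvent control is described in the labels. Nothing in them says whether the libraries of a group came from separate mice or cultures, so p-values measure the spread between these libraries, which may be technical.

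TGF-β binds a pair of receptor kinases that phosphorylate Smad2 and Smad3, which join Smad4, enter the nucleus and change transcription. Among the genes they turn on are several of their own inhibitors, which close a negative feedback loop. The inhibitors act at successive levels. Smad7 and Smad6 block the activated receptors, Pmepa1, Ldlrad4 and Bambi act at membranes, Smurf1 and Smurf2 mark receptors and SMADs for degradation, and Ski, Skil and Tgif1 silence SMAD complexes on DNA. In NK cells TGF-β restrains killing, cytokine secretion and growth.

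Library totals lay between 15714973 and 16718673 expected counts, and levels are given as CPM, counts divided by the library total and set on a common scale with TMM factors, which even out differences in composition between libraries. The 12 NK markers examined, among them Ncr1, Gzmb and Prf1, were present in every group and summed to 17000 to 17200 CPM in SIS3_TGFb, 15700 to 17100 CPM in TGFb and 20500 to 21600 CPM in Ctrl libraries. Markers of macrophages and monocytes (10 of 10 in the table, none at 0 throughout) came to 771 to 1306 CPM in SIS3_TGFb, 686 to 1071 CPM in TGFb and 953 to 1280 CPM in Ctrl libraries. SIS3_TGFb replicate 3 was the highest of its group both in these markers, where the other libraries of the group held 836 and 771 CPM, and in those of dendritic cells (904 CPM, with 563 and 519 CPM in the others). In erythroid and megakaryocyte markers TGFb replicate 3 held 8.19 CPM, and the other TGFb libraries 39.6 and 32.1 CPM. TGFb replicate 3 was also the lowest of its group in markers of macrophages and monocytes (686 CPM), dendritic cells (461 CPM) and T cells (8.65 CPM). Markers of mast cells and basophils came to 555 to 653 CPM in SIS3_TGFb, 575 to 642 CPM in TGFb and 614 to 638 CPM in Ctrl libraries. Kit, Mcpt8 and Cma1 were the most abundant of them, and none of these was lowest of its group in TGFb replicate 3. The scarcer Prss34 held 3.46 CPM in that library, against 34.17 and 21.05 CPM in the other TGFb libraries. Gata2 held 0.466 CPM there, against 7.57 and 5.25 CPM. Cpa3, Fcer1a, Ms4a2, Hdc and Tpsb2 were also lowest of the TGFb group there. In such bulk RNA, fewer cells of a type and less RNA per cell cannot be told apart.

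After TGF-β1, 9 of the 10 regulators rose and 1, Bambi, did not pass the test (edgeR quasi-likelihood test, Benjamini-Hochberg adjusted p below 0.05 over all tested genes). Of all tested genes 34.3% changed in this comparison, with 17.9% risen and 16.4% fallen. The rise of Smurf1 was marginal, so that 8 regulators were called in 15 of 18 other ways of processing tried. The median log2 change of the 10 was 1.40, against -0.00357 over all tested genes. These 10 were chosen with earlier results of these data known. A rise of at least 1 on the log2 scale was seen for 6 of them, Pmepa1, Ski, Ldlrad4, Smad7, Smad6 and Skil, and for 2.97% of all tested genes. The libraries of the 2 groups did not overlap for any of the 10, with 9 higher in TGFb (22.9% of all tested genes) and 1 lower (22.1%).

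With SIS3 given before TGF-β1, the same 9 regulators were still higher than in untreated cells (53.9% of all tested genes changed, 29% risen), and Bambi again did not pass. A rise of at least 1 was seen for 7 of them (5.44% of all tested genes), and 9 had all SIS3_TGFb libraries above all Ctrl libraries (32.6%). Compared with TGF-β1 alone, SIS3 moved single regulators in both directions by small amounts. There 4 rose (21.2% of all tested genes), 3 fell (20.6%) and 3 did not pass, between log2 changes of -0.34 and 0.45 (5 rose and 1 fell without scaling factors, and 2 rose and 2 fell in DESeq2), with 41.8% of all tested genes changed in either direction. The 4 that rose had all SIS3_TGFb libraries above all TGFb libraries (26.5% of all tested genes), the 3 that fell had them all below (24.9%), and 0 rose by 1 or more (1.97%). The calls for Tgif1, Smurf1 and Ski held under each of the 18 other ways of processing, that for Pmepa1 under 17, that for Smad7 under 14 and those for Ldlrad4 and Smurf2 under 8. The 3 comparisons share libraries and are not independent of each other. The calls over all genes in TGFb versus Ctrl were 52.2% rises, and 41.3% with upper-quartile factors. In SIS3_TGFb versus TGFb they were 50.6% rises, and 71.1% without scaling factors.

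**Figure D1:**
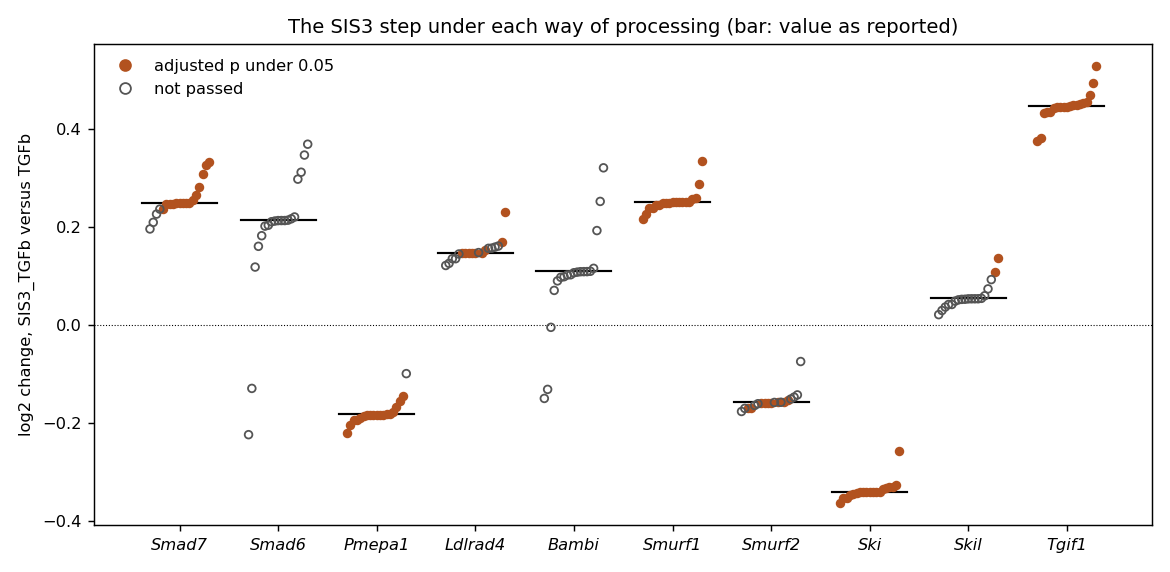
Log2 change of each regulator in SIS3_TGFb versus TGFb (y axis) in the fit as reported and in the 18 other ways of processing. Points are sorted by value and filled where the adjusted p was under 0.05, and a bar marks the value as reported. Tgif1, Smurf1 and Ski are filled throughout, while Smad6 and Bambi are open throughout and cross 0.

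**Figure D2:**
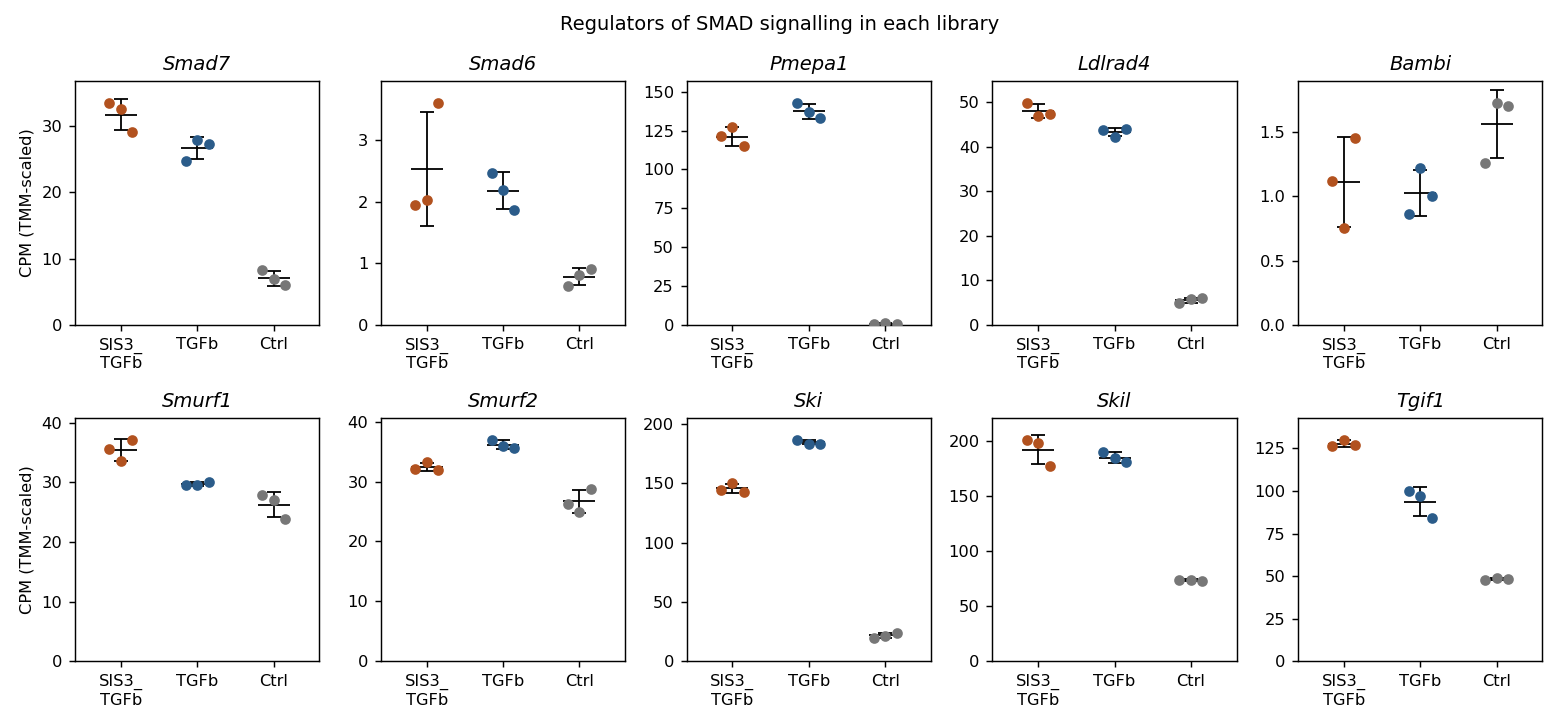
CPM of each regulator in each library (y axes from 0, differing between panels), with points for libraries, and bars for the mean and SD of 3. Every regulator except Bambi lies higher in both groups given TGF-β1 than in Ctrl, and Pmepa1 is at 114.8 CPM or more in those 6 libraries, against 0.801 CPM or less in Ctrl.

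The inhibitory SMADs Smad7 and Smad6 lack the tail that receptors phosphorylate, and they compete with the signalling SMADs at the receptor. Smad7 (Entrez 17131, chromosome 18, 75367365 to 75395935, GRCm38.p6), which also carries the Smurf ligases to TGF-β receptors, stood at 33.5, 32.7 and 29.1 CPM in SIS3_TGFb, 24.8, 28 and 27.4 CPM in TGFb and 8.2, 6.96 and 5.96 CPM in Ctrl libraries. The 3 groups did not overlap, and SIS3_TGFb was the highest. Smad7 rose 3.8-fold in TGFb versus Ctrl (log2 1.92 ± 0.10 SE, adjusted p = 4.73e-10). The further rise in SIS3_TGFb versus TGFb was 1.19-fold (log2 0.25 ± 0.08, adjusted p = 0.0226), a call that ended in DESeq2 (adjusted p = 0.0653) and without TGFb replicate 1 (0.104), SIS3_TGFb replicate 1 (0.0988) or SIS3_TGFb replicate 2 (0.0788).

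Smad6 (Entrez 17130, chromosome 9, 63953076 to 64022085), which acts mainly on bone morphogenetic protein receptors, was scarce. Its expected counts were 33, 35 and 62 in SIS3_TGFb, 40, 36 and 28 in TGFb and 10, 13 and 15 in Ctrl libraries. All 6 libraries given TGF-β1 lay above the Ctrl libraries. In CPM it averaged 2.17 ± 0.30 in TGFb and 0.78 ± 0.14 in Ctrl (SD), a log2 change of 1.47 ± 0.31 SE (adjusted p = 0.00161). SIS3_TGFb replicate 3 held 3.6 CPM, against 1.95 and 2.03 CPM in the other libraries of its group, and was also the library with the most macrophage and dendritic cell marker RNA. The part of these cells in the Smad6 level was not tested. Between SIS3_TGFb and TGFb Smad6 did not pass (log2 0.21, 95% interval -0.33 to 0.75, adjusted p = 0.536), and its direction turned without that library (log2 -0.13, adjusted p = 0.717).

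Of the regulators that act at membranes, Pmepa1 and Ldlrad4 rose strongly and the scarce Bambi did not pass the test. Pmepa1 and Ldlrad4 are related proteins that bind Smad2 and Smad3 and keep them from the receptor, and Bambi is a decoy receptor with no kinase domain. Pmepa1 (Entrez 65112, chromosome 2, 173224458 to 173276731) stood at 122, 127 and 115 CPM in SIS3_TGFb, 143, 137 and 133 CPM in TGFb and 0.757, 0.801 and 0.426 CPM in Ctrl libraries. Its counts in Ctrl were 12, 13 and 7, so 1 of those libraries lay under the minimum count of 10 that the filter uses, and it entered the test through the other groups. The rise in TGFb versus Ctrl, 206-fold (95% interval 177 to 240.), ranked 1 of 12212 genes. Pmepa1 fell by 11.9% in SIS3_TGFb versus TGFb (log2 -0.18 ± 0.05 SE, adjusted p = 0.00564), with no overlap of libraries, although this call ended without scaling factors (adjusted p = 0.111).

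Ldlrad4 (Entrez 52662, chromosome 18, 67932274 to 68260550) stood at 49.7, 47.0 and 47.2 CPM in SIS3_TGFb, 43.8, 42.2 and 43.9 CPM in TGFb and 4.86, 5.67 and 5.9 CPM in Ctrl libraries. All SIS3_TGFb libraries were above all TGFb libraries, and those were above all Ctrl libraries. Ldlrad4 rose 7.88-fold in TGFb versus Ctrl (log2 2.98 ± 0.07 SE, adjusted p = 9.46e-14) and ranked 40 among all tested genes. Its rise in SIS3_TGFb versus TGFb was 1.11-fold (95% interval 1.02 to 1.2, adjusted p = 0.0389), and over the other ways of processing its adjusted p ran from 0.0034 to 0.19, past the threshold in 10 of 18. Pmepa1 and Ldlrad4 thus had SIS3 steps of opposite sign, and the difference between them was not tested.

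Bambi (Entrez 68010, chromosome 18, 3507011 to 3516404) had expected counts of 19, 13 and 25 in SIS3_TGFb, 14, 20 and 15 in TGFb and 20, 28 and 28 in Ctrl libraries. Its TGFb libraries, at 0.862, 1.22 and 0.999 CPM, all lay below its Ctrl libraries, at 1.26, 1.73 and 1.7 CPM. The fitted log2 change in TGFb versus Ctrl was -0.60 (95% interval -1.22 to 0.02) and did not pass (adjusted p = 0.127). The intervals of SIS3_TGFb versus TGFb (-0.54 to 0.76) and SIS3_TGFb versus Ctrl (-1.1 to 0.11) held 0 as well.

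The ubiquitin ligases Smurf1 and Smurf2 share a catalytic HECT domain and tag SMADs and receptors for destruction. Both were moderately abundant and changed by less than 1 on the log2 scale in every comparison, and their SIS3 steps had opposite signs. Smurf2 (Entrez 66313, chromosome 11, 106820061 to 106920747) stood at 32.1, 33.2 and 31.9 CPM in SIS3_TGFb, 36.9, 36.0 and 35.6 CPM in TGFb and 26.3, 25.0 and 28.8 CPM in Ctrl libraries. The 3 groups did not overlap, with TGFb the highest. It rose 1.36-fold in TGFb versus Ctrl (log2 0.44 ± 0.06 SE, adjusted p = 2.79e-05). Its fall in SIS3_TGFb versus TGFb was small. It fell by 0.16 (SE 0.06) on the log2 scale (adjusted p = 0.041), but this call ended in 10 of 18 other ways of processing, among them DESeq2 (adjusted p = 0.104) and the fit without scaling factors (0.355).

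Smurf1 (Entrez 75788, chromosome 5, 144876495 to 144965899) stood at 35.6, 33.5 and 37.1 CPM in SIS3_TGFb, 29.5, 29.6 and 30.1 CPM in TGFb and 27.8, 27.1 and 23.9 CPM in Ctrl libraries. The groups did not overlap, and here SIS3_TGFb was the highest. The rise in SIS3_TGFb versus TGFb was 1.19-fold (log2 0.25 ± 0.06 SE, adjusted p = 0.0051), and its adjusted p stayed at or below 0.024 under the 18 other ways of processing. The rise in TGFb versus Ctrl was 1.13-fold with an adjusted p of 0.0491, just under the threshold, and it did not pass in 15 of those 18, with an adjusted p of up to 0.229. Against Ctrl, SIS3_TGFb was 1.35-fold higher (log2 0.43 ± 0.06, adjusted p = 3.87e-05).

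The stretches before both ligase genes are shown to compare a related pair whose SIS3 steps differed in sign. They are chr5:144965900-144966080 (181 bases) and chr11:106920748-106920965 (218 bases) of GRCm38.p6, minus strand, from RefSeq promoter windows of 250 bases, without the 69 and 32 bases that lie inside the gene as RefSeq bounds it. Capitals mark GGCGC and CAGAC, short motifs bound by the DNA-binding domain of Smad3 and Smad4, in either orientation (GCGCC and GTCTG on the printed strand), and matches may overlap each other. Smurf1 held 3 matches to GGCGC and 2 to CAGAC, and among 32851 promoter windows the first 181 bases held GGCGC in 23.2% and CAGAC in 33.4%. Smurf2 held 6 matches to GGCGC and 1 to CAGAC, and the first 218 bases held them in 28.1% and 38.3% of all windows. These matches describe the letters only, in stretches rich in G and C (70.2% for Smurf1 and 81.2% for Smurf2). Of the 10 regulators, 5 had an entry in that table (Ski, Smad6, Smurf1, Smurf2 and Tgif1), and the 224 bases before Smad6 held 0 matches to either motif (28.8% and 39% of all windows of that length held GGCGC and CAGAC).
Smurf1: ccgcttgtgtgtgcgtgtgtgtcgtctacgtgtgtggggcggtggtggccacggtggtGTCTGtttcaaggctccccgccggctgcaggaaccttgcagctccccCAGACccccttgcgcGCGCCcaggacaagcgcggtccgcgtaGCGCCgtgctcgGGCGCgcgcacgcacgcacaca
Smurf2: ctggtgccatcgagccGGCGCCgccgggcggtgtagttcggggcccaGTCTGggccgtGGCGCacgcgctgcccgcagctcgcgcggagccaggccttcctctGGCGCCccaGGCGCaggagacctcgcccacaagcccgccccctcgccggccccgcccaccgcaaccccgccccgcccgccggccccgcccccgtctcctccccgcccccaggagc

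The nuclear corepressors Ski, Skil and Tgif1 all rose after TGF-β1. With SIS3 Ski was lower and Tgif1 higher than with TGF-β1 alone, and Skil did not pass. Ski and its relative Skil (SnoN) bind Smad2, Smad3 and Smad4 and bring in histone deacetylases, and Tgif1 is a homeodomain protein that represses genes with Smad2 and Smad3. Ski (Entrez 20481, chromosome 4, 155154075 to 155222535) stood at 144, 150.0 and 143 CPM in SIS3_TGFb, 187, 183 and 183 CPM in TGFb and 19.7, 21.8 and 24.2 CPM in Ctrl libraries. Its groups lay far apart, and SIS3_TGFb was in the middle. Ski rose 8.41-fold in TGFb versus Ctrl (log2 3.07 ± 0.05 SE, adjusted p = 1.29e-15), ranked 39 among tested genes. With SIS3 it fell by 0.34 (SE 0.04) on the log2 scale relative to TGFb, or to 0.79 of its TGFb level (95% interval 0.741 to 0.842, adjusted p = 1.56e-05). It remained 6.64-fold above Ctrl.

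Skil (Entrez 20482, chromosome 3, 31095058 to 31122923) stood at 201, 198 and 177 CPM in SIS3_TGFb, 190, 185 and 181 CPM in TGFb and 74.3, 74.1 and 73.3 CPM in Ctrl libraries. Both groups given TGF-β1 overlapped each other and lay above Ctrl. It rose 2.51-fold in TGFb versus Ctrl (log2 1.33 ± 0.05 SE, adjusted p = 4.32e-12). Its ratio of SIS3_TGFb to TGFb was 1.04 (95% interval 0.973 to 1.11, adjusted p = 0.351). The lowest of the SIS3_TGFb libraries was replicate 3, and Skil passed without it (log2 0.11, adjusted p = 0.0314) and also without scaling factors (log2 0.14, adjusted p = 0.0191).

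Tgif1 (Entrez 21815, chromosome 17, 70844205 to 70853532) stood at 126, 129.9 and 127 CPM in SIS3_TGFb, 99.9, 96.9 and 84.0 CPM in TGFb and 47.6, 49.1 and 48.6 CPM in Ctrl libraries. The groups did not overlap, and TGFb replicate 3 was below the other TGFb libraries. Tgif1 rose 1.93-fold in TGFb versus Ctrl (log2 0.95 ± 0.06 SE, adjusted p = 1.63e-09). SIS3_TGFb stood 1.36-fold above TGFb (log2 0.45 ± 0.05, adjusted p = 5.39e-06), the largest change of the 10 in that comparison. Without TGFb replicate 3 this log2 change was 0.38 (adjusted p = 1.7e-06). Against Ctrl it was 2.64-fold higher. The deposited counts of Tgif1 were not exactly whole in 6 of 9 libraries but lay within 0.01 of a whole number.

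Upstream of Ski, the corepressor with the largest rise, the 250 bases before the RefSeq gene (chr4:155222536-155222785, GRCm38.p6, minus strand) held 7 matches to GGCGC and 0 to CAGAC, in a window of 87.6% G and C. Of all promoter windows of this length, 32% held GGCGC and 42.2% held CAGAC. The sequence is shown with the same capitals. Of the 5 starts listed for Tgif1, 4 lie inside its gene, and the 250 bases before the outermost held 0 matches to GGCGC and 1 to CAGAC.
Ski: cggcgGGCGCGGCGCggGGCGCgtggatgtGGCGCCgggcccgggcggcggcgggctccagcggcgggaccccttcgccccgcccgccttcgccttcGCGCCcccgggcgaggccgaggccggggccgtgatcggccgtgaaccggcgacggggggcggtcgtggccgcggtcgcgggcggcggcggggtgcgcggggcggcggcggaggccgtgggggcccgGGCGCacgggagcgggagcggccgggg

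**Figure D3:**
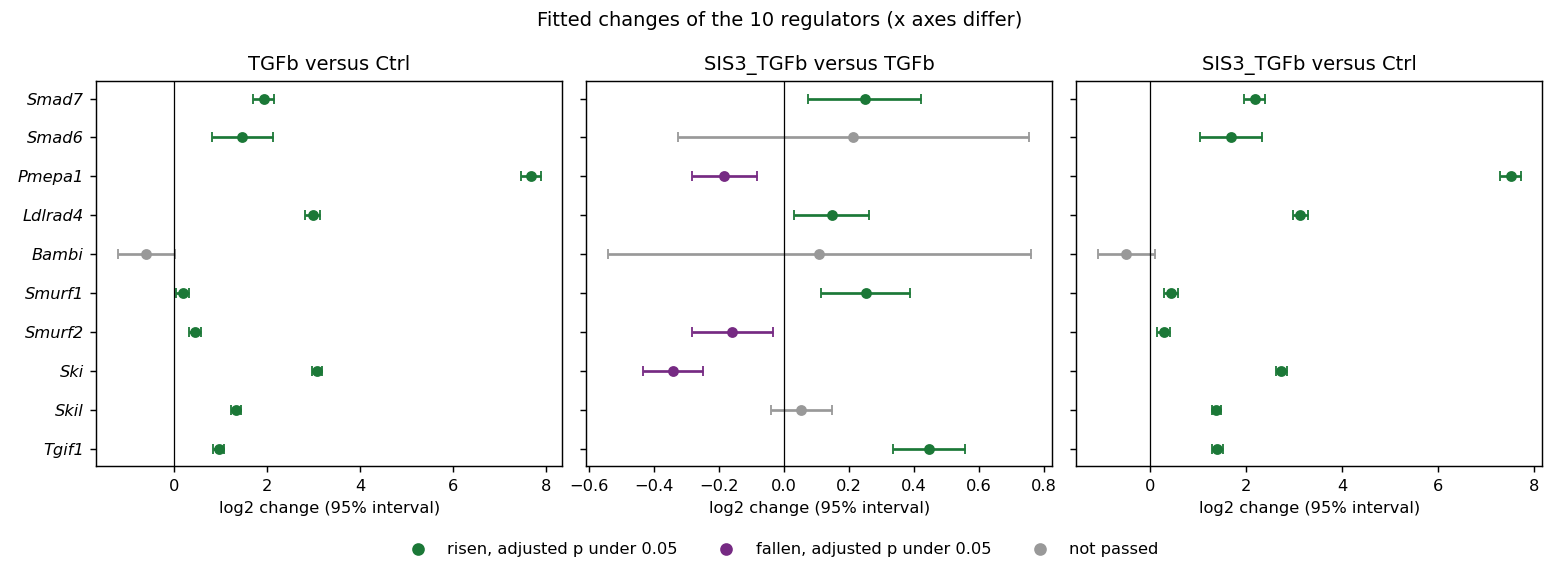
Fitted log2 changes of the 10 regulators with 95% intervals in each comparison (x axes differ), coloured by whether the adjusted p was below 0.05. The SIS3 step spans -0.34 for Ski to 0.45 for Tgif1, while the TGF-β1 step reaches 7.69 for Pmepa1.

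Per exon length, the order of the 10 transcripts differed between groups, mainly through Pmepa1 and Ski. Levels per kb were taken as mean CPM divided by the length covered by GENCODE M21 basic exons, which overstates the length where isoforms differ. In Ctrl cells the order was led by Tgif1 (21.0 ± 0.31 CPM per kb, SD) and Skil (11.0 ± 0.08), and Pmepa1 (0.146 ± 0.045) was last. Smurf2 (5.01 ± 0.36) and Smurf1 (4.84 ± 0.38) were next to each other and within their spread in Ctrl, as were Bambi (0.308 ± 0.052) and Smad6 (0.263 ± 0.048). In TGFb cells Tgif1 (40.6 ± 3.65 CPM per kb) was followed by Ski (33.4 ± 0.33), Pmepa1 (30.3 ± 1.06) and Skil (27.6 ± 0.72). In SIS3_TGFb cells Tgif1 led at 55.4 ± 0.85 CPM per kb, and Skil (28.6 ± 1.94), Pmepa1 (26.7 ± 1.37) and Ski (26.4 ± 0.69) followed within their spread of each other. Smad6 (0.851 ± 0.313 CPM per kb) and Bambi (0.219 ± 0.069) were the lowest there.

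**Figure D4:**
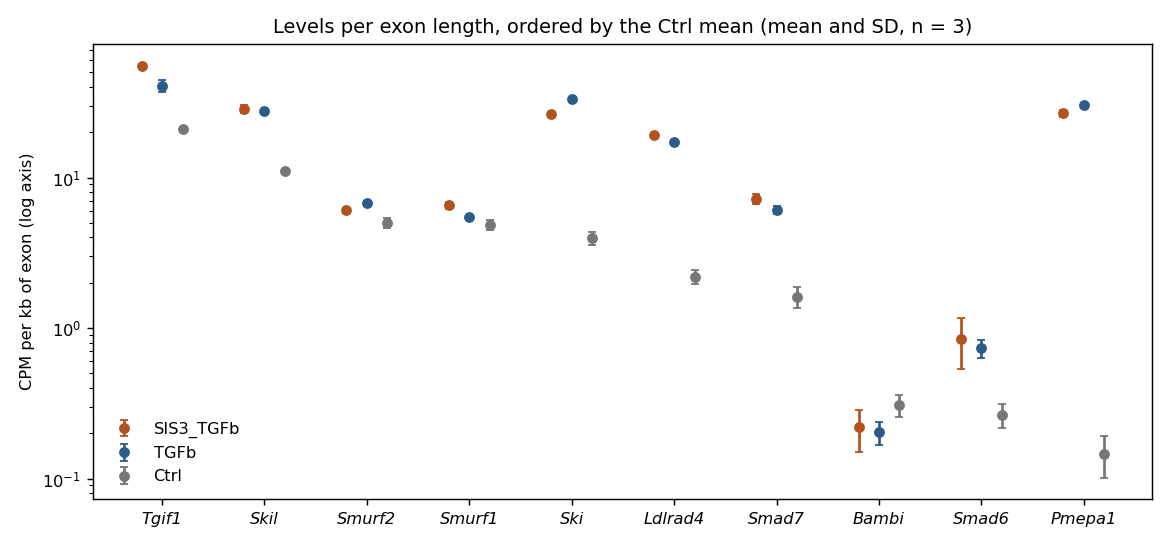
Mean level per kb of exon (log axis, SD of 3 libraries) of each regulator in the 3 groups, ordered by the Ctrl mean. Pmepa1, last in Ctrl at 0.146 CPM per kb, is behind only Tgif1 and Ski in TGFb at 30.3 CPM per kb, while Smad6 and Bambi stay under 1 CPM per kb in every group.

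The summed level of the 10 genes was 738 ± 22.5 CPM in SIS3_TGFb, 740 ± 18.4 CPM in TGFb and 213 ± 1.06 CPM in Ctrl libraries (SD). The sums of the 2 groups given TGF-β1 differed by less than the spread between libraries, with less Ski and more Tgif1 in SIS3_TGFb.

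Genes whose profiles over the 9 libraries lay closest to a regulator were found by the root mean square (RMS) difference in log2 CPM, each profile set to a Ctrl mean of 0. This measure counts the size of a change as well as its shape. By it Pmepa1, with the largest rise of all tested genes, had no close match. Scn3b, a sodium channel subunit, was nearest at an RMS difference of 1.88. Its log2 change in TGFb versus Ctrl was 5.885, against 7.687 for Pmepa1. For Ski the nearest were Hivep3 (0.15), Ano1 (0.157) and Sec1 (0.165), and for Ldlrad4 they were Art4 (0.118), Gdpd5 (0.172) and Tbc1d16 (0.207). Smad7 lay nearest to Nrarp (0.0896), Ppp2r2c (0.108) and Plppr4 (0.117). Skil lay nearest to Osbpl1a (0.0662), the adhesion molecule gene Cdh1 (0.067) and Slc9a3r1 (0.0672), and Tgif1 to the ubiquitin ligase gene Peli1 (0.0769), Mknk2 (0.104) and Tnfsf4 (0.108). Smurf2 lay nearest to Gpaa1 (0.0465), Ppp2r1b (0.0472) and Ctdsp2 (0.0473), a phosphatase that acts on SMADs. Smurf1 was nearest to Parvg (0.0572), Tmbim1 (0.0586) and Eapp (0.0637). The nearest to the scarce Smad6 and Bambi were Sgk1 (0.186) and Stom (0.128).

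Other genes of the pathway were taken from lists made from general knowledge, but with earlier results of these data known. No test compared the lists with the 10 regulators. Their counts stand beside the 17.9% of all tested genes that rose and the 16.4% that fell in TGFb versus Ctrl, and the 21.2% that rose and the 20.6% that fell in SIS3_TGFb versus TGFb. Of 7 TGF-β family ligands tested, 4 rose in TGFb versus Ctrl (Tgfb1, Tgfb2, Tgfb3 and Inhba), 0 fell and 3 did not pass, with a median log2 change of 0.917, and 0 of 7 passed in SIS3_TGFb versus TGFb. Only Tgfb1 was abundant, with means of 854 CPM in TGFb and 375 CPM in Ctrl, and the other ligands tested were scarce. Tgfb3 stood at 6.96 and 0.537 CPM, Tgfb2 at 2.46 and 0.741 CPM and Inhba at 3.61 and 1.91 CPM. The median of this list is the value of Inhba. Of 10 receptors, 4 rose after TGF-β1 (Acvr1b, Acvr1, Bmpr2 and Tgfbr1) and 0 fell, with a median of -0.04. With SIS3 2 receptors rose relative to TGFb, Acvr1 and Acvr1b, and 1 fell, Tgfbr1. The type II receptor Tgfbr2 was at 417 ± 21.8 CPM in SIS3_TGFb, 440 ± 12 CPM in TGFb and 449 ± 20.8 CPM in Ctrl cells (SD) and did not pass in either step.

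Of the 5 signalling SMADs tested, 1 rose after TGF-β1, a share near the 17.9% of all tested genes. This was Smad3, the target of SIS3, at 5.61 ± 0.82 CPM in SIS3_TGFb, 9.75 ± 0.59 CPM in TGFb and 4.3 ± 0.91 CPM in Ctrl cells (SD). Smad3 fell by 0.80 (SE 0.15) on the log2 scale in SIS3_TGFb versus TGFb, and Smad1 (log2 0.76 ± 0.08), Smad2 (0.19 ± 0.05) and Smad4 (0.18 ± 0.05) rose. Like Ski, Pmepa1 and Smurf2, Smad3 was a gene that rose after TGF-β1 and was lower with SIS3 than without it. The same held for other listed genes, among them Junb, Rgs16 and Itgav. The fall of Smurf2 ended in 10 of 18 other ways of processing. Both steps use the same TGFb libraries, and how many of all tested genes had this pattern was not counted.

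Among 14 further inhibitors of SMAD signalling, 3 rose, 4 fell and 7 did not pass in TGFb versus Ctrl, with a median log2 change of -0.06, beside 17.9% risen and 16.4% fallen of all tested genes. Those that rose were Nbl1, an antagonist of bone morphogenetic proteins (log2 0.79 ± 0.13 SE), the phosphatase Ctdsp2 (0.47 ± 0.04) and the ligase Wwp2 (0.13 ± 0.04), and those that fell were Wwp1, Itch, Fkbp1a and Strap. Relative to TGFb, 4 of the 14 rose and 4 fell in SIS3_TGFb (21.2% and 20.6% of all tested genes), among them Nbl1 (log2 0.69 ± 0.11), the SMAD phosphatase Ppm1a (0.22 ± 0.04), the ligase Nedd4 (-0.40 ± 0.03) and the receptor-binding Fkbp1a (-0.32 ± 0.04). Another list of 10 tested genes held regulators of the inhibitors and of other steps of the pathway. Of these 10, 0 rose and 1 fell after TGF-β1 (17.9% and 16.4% of all tested genes), the deubiquitinase Usp4 (log2 -0.18 ± 0.03). Rnf111 (Arkadia), the ligase that degrades Ski, Skil and Smad7, was at 62 ± 2.26 CPM in SIS3_TGFb, 61.4 ± 4.68 CPM in TGFb and 58.2 ± 1.55 CPM in Ctrl cells (SD) and did not pass in either step. With SIS3 1 of these 10 rose relative to TGFb, the deubiquitinase Usp11 (log2 0.58 ± 0.07), and 0 fell (21.2% and 20.6% of all tested genes).

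Of 6 partners through which Ski represses genes, 2 rose after TGF-β1, among them the scaffold Sin3a (log2 0.29 ± 0.04 SE), and 2 fell, the deacetylases Hdac1 (-0.20 ± 0.04) and Hdac2 (-0.23 ± 0.06). Under SIS3 1 of them rose, Ncor1, and 2 fell, Sin3a (-0.20 ± 0.04) and Hdac1 (-0.36 ± 0.04). Of 17 other SMAD target genes tested, 10 rose, 3 fell and 4 did not pass in TGFb versus Ctrl, with a median log2 change of 0.424 (17.9% of all tested genes rose and 16.4% fell). Of these 17, 6 rose, 3 fell and 8 did not pass in SIS3_TGFb versus TGFb, with a median of 0.128 (21.2% and 20.6% of all tested genes rose and fell). Nt5e, which encodes CD73 (log2 0.97 ± 0.09), and Klf10 (1.12 ± 0.09) rose further, and Junb (-0.41 ± 0.05), Rgs16 (-0.33 ± 0.05) and Itgav (-0.22 ± 0.05) fell.

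**Figure D5:**
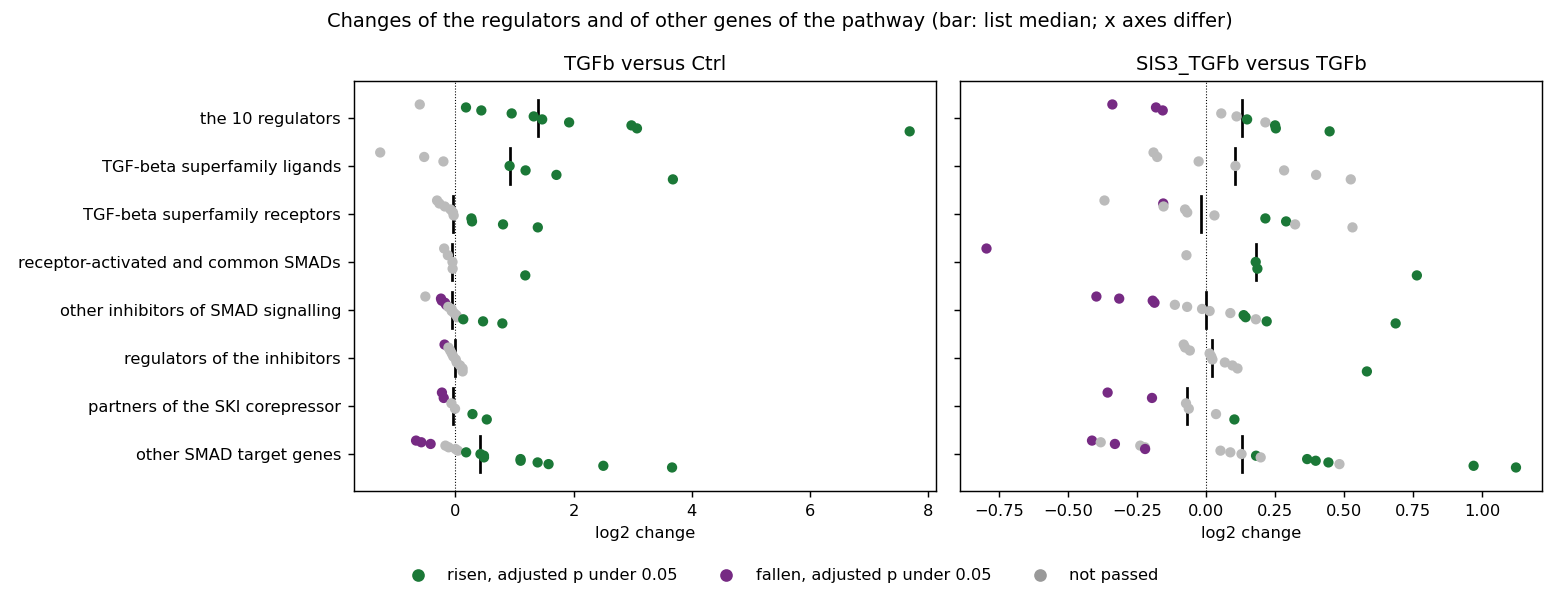
Log2 changes of the 10 regulators and of the tested genes of each pathway list in 2 comparisons (x axes differ), with a point for each gene and a bar at each median. After TGF-β1 the medians of the regulators (1.40) and ligands (0.917) are the highest of the 8 rows. Regulators and lists were chosen with earlier results of these data known, and the rows were not tested against each other.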

How the data were processed

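The authors deposited 1 table with a column of expected counts for each library, which are estimated numbers of reads that are not scaled to depth. The submitters' processing notes name RSEM, Bowtie2, HISAT2, Cufflinks, StringTie and DESeq2, with mm10 and GRCm38 as builds. What each did, its version and the annotation used were not given in the sources used here. Per the labels, 1 µg RNA was sequenced as 100 bp pairs, and between 10.2% and 11.1% of the values of a library were not exactly whole as deposited, with no tolerance.

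Expected counts were rounded to whole numbers, filtered with filterByExpr (minimum count 10, minimum total 15), scaled by TMM and fitted over all 9 libraries with the quasi-likelihood test of edgeR 4.0.16 in R 4.3.3, with 1 mean per group. P-values were two-sided and Benjamini-Hochberg adjusted over 12212 genes, and a gene rose or fell at an adjusted p below 0.05. Each SE was taken as the size of the log2 change over the root of its F statistic. Alternatives used DESeq2 1.42.0, limma 3.58.1 (voom), other scaling factors, no filter, only the libraries compared, a replicate block and single libraries left out. All 10 members are named, and gene lists, members and the likeness measure were chosen with earlier results of these data known. Gene positions and promoters are from RefSeq, GRCm38.p6, and promoter bases inside the gene were left out. No 2 libraries of a group agreed within sampling noise (chi-square per degree of freedom 1.62 to 5.23). Replicates 1 and 2 were closest in TGFb (2.07) and SIS3_TGFb (1.62). Pairs with replicate 3 were further apart in TGFb (5.23 and 5.21) and SIS3_TGFb (4.22 and 4.74). The Ctrl pairs lay between 2.77 and 3.12. Exons of the 10 genes overlapped another annotated gene only in Smurf2, by 58 bases of a miRNA gene.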

Additional observations from a re-analysis of the deposited data

How the results depend on the processing

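Each value was recomputed in 18 other ways, 1 of them, without TGFb replicate 3 and SIS3_TGFb replicate 3 together, added after the data were seen. Every log2 change that was called as reported kept its direction in all 18, and only the uncalled SIS3 steps of Smad6 and Bambi turned. In SIS3_TGFb versus Ctrl all 180 recomputed values kept their side of the threshold, in TGFb versus Ctrl 165 of 180 did, and the 15 that did not are those of Smurf1. In SIS3_TGFb versus TGFb 153 of 180 did, 25 calls were lost (Ldlrad4 10, Smurf2 10, Smad7 4 and Pmepa1 1) and 2 were gained (Skil). The number of the 10 regulators called there was 7, but 4 in DESeq2, and between 4 and 7 when 1 library was left out, with the low value of 4 without TGFb replicate 1, SIS3_TGFb replicate 1 or SIS3_TGFb replicate 2. The share of 41.8% of all genes called belongs to the fit as reported, with 5104 calls. The fits with a count of 4 called fewer genes over all. These were 4125 in DESeq2, 4550 without TGFb replicate 1, 4295 without SIS3_TGFb replicate 1 and 4324 without SIS3_TGFb replicate 2. With TGFb replicate 3 and SIS3_TGFb replicate 3 both left out, 8 regulators were called in TGFb versus Ctrl, 6 in SIS3_TGFb versus TGFb and 9 in SIS3_TGFb versus Ctrl. Over all genes that fit called 4230 in TGFb versus Ctrl and 4738 in SIS3_TGFb versus TGFb, against 4190 and 5104 as reported. The cause of the lost calls was not tested.

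With the replicate number as a block, the 10 regulators gave 8 calls in TGFb versus Ctrl, 5 in SIS3_TGFb versus TGFb and 9 in SIS3_TGFb versus Ctrl, and all genes gave 3942, 4803 and 6346 calls, against 4190, 5104 and 6585 without the block. Deviations from the group means correlated between -0.147 and 0.126 for equal numbers and between -0.163 and 0.145 for other numbers. With 3 libraries per group, this cannot settle whether equal numbers mark a shared mouse, culture or day. When 1 library was left out, calls over all genes numbered 3571 to 4297 in TGFb versus Ctrl, 4295 to 5080 in SIS3_TGFb versus TGFb and 5875 to 6868 in SIS3_TGFb versus Ctrl. In SIS3_TGFb versus Ctrl rises made up 53.8% of all calls, and 63.8% without scaling factors. Smad6 and Bambi had low counts in every group (10 to 62 and 13 to 28 per library) and the widest intervals of the 10, and a part of depth in the uncalled results was not tested.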
